A study of Mus musculus with 20 samples.

Results

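Surface colonocyte differentiation markers are genes linked to colonic epithelial cells that leave the crypt and take their place at the luminal surface. Such a gene need not be confined to these cells. The set examined here holds 8 genes, Krt20, Clca4a, Ceacam1, Ceacam20, Emp1, Guca2a, Guca2b and Gucy2c, found by matching the Ensembl identifiers of the count table to their GENCODE symbols. They are 8 of the 26619 genes in the table, and all 8 were among the 17893 genes abundant enough to be tested. They were read in the distal colon (DC) of 20 male C57BL/6 mice, from one RNA library per mouse. All mice ate the Total Western Diet (TWD), a rodent diet modelled on human intake in the United States, for 6 weeks, and then for 3 more weeks the TWD with 0, 2, 5 or 10% resistant potato starch (RPS), 5 mice per diet. RPS is labelled raw potato starch by the submitters and escapes digestion in the small bowel. The 0% RPS mice stayed on the basal TWD and served as controls.

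The colonic surface is renewed continuously from stem cells at the crypt base, and the cells change their gene expression as they move upward. Mature colonocytes at the crypt mouth absorb salt and water, carry a brush border and are shed into the lumen. Krt20 encodes keratin 20, an intermediate filament protein of differentiated intestinal epithelium, and Emp1 encodes a small membrane protein of the PMP22 family. Clca4a encodes a member of the calcium-activated chloride channel regulator family, whose proteins are secreted or membrane-bound and are not thought to be channels themselves. Ceacam1 and Ceacam20 encode adhesion molecules of the carcinoembryonic antigen family, and Ceacam20 protein lies on the microvilli of intestinal epithelial cells. Guca2a and Guca2b encode the peptides guanylin and uroguanylin, which are released into the lumen and bind guanylate cyclase C, the receptor encoded by Gucy2c. The receptor then makes cyclic GMP, which raises chloride and bicarbonate secretion and lowers sodium uptake. Guanylin is the main ligand in the colon and uroguanylin that of the upper small intestine.

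The 8 genes lie on 5 chromosomes, and their positions are given in the mouse assembly GRCm39 with GENCODE vM39, which lists all as protein-coding. The ligand genes are neighbours on chromosome 4, with Guca2a (ENSMUSG00000023247) at 119494890 to 119496668 on the plus strand and Guca2b (ENSMUSG00000032978) at 119513802 to 119516151 on the minus strand, 17133 bases apart. Krt20 (ENSMUSG00000035775) is at 99319227 to 99328985 on chromosome 11, minus strand. Clca4a (ENSMUSG00000068547) is at 144658241 to 144680806 on chromosome 3, minus strand. Chromosome 7 holds Ceacam20 (ENSMUSG00000070777) at 19699337 to 19725029, plus strand, and Ceacam1 (ENSMUSG00000074272) at 25161128 to 25177257, minus strand. Chromosome 6 holds Emp1 (ENSMUSG00000030208) at 135339543 to 135360171, plus strand, and Gucy2c (ENSMUSG00000042638) at 136674282 to 136758827, minus strand.

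The bases just before the start of 4 of these genes are shown because the 2 markers that rose with RPS (Krt20 and Ceacam20) and the 2 ligand genes, neighbours on 1 chromosome with unlike levels, can be read side by side. The sequences are from the RefSeq promoter table of GRCm38.p6, which has an entry for 6 of the 8 markers, and were placed on GRCm39 by exact match. Each runs 5′ to 3′ along its gene, from 250 bases before the RefSeq start to the last base outside the annotated gene. Capitals mark short motifs searched on both strands. The letters TTTAT are a core bound by Cdx1 and Cdx2, and CAAAGTC is one of Hnf4a and Hnf4g. Klf4 and Klf5 bind CACCC. Gata6 binds AGATAA.
Krt20 (chr11:99328986-99329229, minus strand): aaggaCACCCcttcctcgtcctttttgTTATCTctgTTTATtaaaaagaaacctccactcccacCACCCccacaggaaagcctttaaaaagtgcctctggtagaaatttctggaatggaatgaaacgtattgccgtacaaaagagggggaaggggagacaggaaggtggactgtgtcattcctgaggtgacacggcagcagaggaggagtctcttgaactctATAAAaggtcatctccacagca
Ceacam20 (chr7:19699087-19699336, plus strand): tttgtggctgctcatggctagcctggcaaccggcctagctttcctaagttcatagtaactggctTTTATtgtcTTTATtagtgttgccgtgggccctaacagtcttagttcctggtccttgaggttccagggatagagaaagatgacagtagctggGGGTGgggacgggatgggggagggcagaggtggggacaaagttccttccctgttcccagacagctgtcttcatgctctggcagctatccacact
Guca2a (chr4:119494679-119494889, plus strand): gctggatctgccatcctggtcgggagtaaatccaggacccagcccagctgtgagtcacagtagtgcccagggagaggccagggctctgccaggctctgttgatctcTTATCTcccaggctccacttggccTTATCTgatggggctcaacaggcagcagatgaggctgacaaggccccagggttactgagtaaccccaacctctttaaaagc
Guca2b (chr4:119516152-119516392, minus strand): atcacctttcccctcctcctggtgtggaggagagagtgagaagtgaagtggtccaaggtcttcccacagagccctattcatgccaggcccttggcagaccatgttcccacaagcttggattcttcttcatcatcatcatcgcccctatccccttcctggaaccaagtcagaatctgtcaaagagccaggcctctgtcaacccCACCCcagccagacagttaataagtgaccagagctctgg
The Krt20 window held TTTAT at -214 and, on the opposite strand, at -28 relative to the RefSeq start, where it overlaps the letters TATAAA that begin at -29. It also held CACCC at -245 and -186 and AGATAA on the opposite strand at -223. The Ceacam20 window held TTTAT at -186 and -177, and CACCC on the opposite strand at -94. The Guca2a window held only AGATAA, on the opposite strand at -144 and -120. The Guca2b window held CACCC at -48. Of the 32851 promoter windows of 250 bases in the table, 37.3% held the Cdx motif, 3.84% the Hnf4 motif, 52% the Klf motif and 9.99% the Gata motif, so a match describes the letters and not a binding site. The annotated lncRNA Gm35761 covers the Guca2b window on the other strand, and the lncRNA Gm73201 overlaps that of Ceacam20.

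The total count per library ran from 18.4 M to 35.0 M (in units of 1000000 counts). It was highest by its mean with 0% RPS (32.8 ± 1.35 M, SD, n = 5) and lowest with 10% RPS (24.3 ± 3.42 M), with 27.9 ± 2.61 M at 2% and 28.3 ± 3.40 M at 5% RPS. After thinning of every library to the smallest total, the same 2 markers passed the trend test described below, where 213 of the 16962 genes tested in that fit rose. The description and treatment labels gave different RPS levels for 3 mice, which are named by the numbers in their labels and grouped here by the description: mouse RS10_748 (2% RPS, treatment label 10%), mouse RS10_717 (5%, treatment label 2%) and mouse RS10_725 (10%, treatment label 5%). Libraries from mouse RS10_721 (5% RPS) and mouse RS10_784 (10% RPS) held transcripts of pancreatic enzymes, with 4534 and 404.7 CPM (counts scaled to a library of 1000000) summed over 7 genes, against 0.465 to 12.4 CPM in the other 18 mice. Epithelial transcripts (9 genes such as Epcam, Cdh1 and Vil1) summed to 11818 to 18541 CPM. Transcripts of squamous epithelium, which lines the anal canal, summed to 7.78 to 17.4 CPM over 9 genes. In bulk tissue a lower share of a cell type and less RNA per cell of that type cannot be told apart, which holds for every value below.

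The level of each marker was compared per kilobase (kb) of its canonical transcript, as the mean ± SD over all 20 mice. Guca2a stood at 530 ± 250 CPM per kb and Krt20 at 400 ± 141 CPM per kb, and their ranges overlapped. Ceacam1 followed at 228 ± 40.2 CPM per kb and Clca4a at 92.5 ± 75.0 CPM per kb. Emp1 at 63.2 ± 28.1, Ceacam20 at 61.7 ± 10.7 and Gucy2c at 48.3 ± 6.34 CPM per kb came next. The ranges of each gene and its neighbour in this order overlapped down to Gucy2c. Guca2b was lowest, at 10.5 ± 1.72 CPM per kb, and its highest mouse (14.3) lay below the lowest mouse of Gucy2c (40.2). Per kb, 7 of the 8 markers lay at percentile 92.3 of tested genes or above, while Guca2b lay at percentile 67.3. The markers also differed in how far mice spread: the highest mouse exceeded the lowest 29.1-fold for Clca4a, 8.59-fold for Guca2a, 5.70-fold for Emp1 and 4.56-fold for Krt20, but 2.30-fold for Ceacam20, 1.95-fold for Ceacam1, 1.89-fold for Guca2b and 1.57-fold for Gucy2c.

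The first question was whether the markers differed from 0% RPS at each RPS level. By the quasi-likelihood F-test of edgeR with Benjamini-Hochberg adjustment over all tested genes, 0 of the 8 markers reached an adjusted p of 0.05 and a 1.5-fold change at 10, 5 or 2% RPS. Of all tested genes, 0.0391% did so at 10% RPS, 0% at 5% RPS and 0% at 2% RPS. At an unadjusted p under 0.05, 3 markers were higher at 10% RPS (Krt20, Clca4a and Ceacam20; 7.32% of all genes were higher by this measure), 5 at 5% RPS (Krt20, Clca4a, Emp1, Guca2a and Guca2b; 4.69% of all genes) and 0 at 2% RPS (0.693% of all genes). DESeq2 called 1 marker, Krt20, at 10% RPS (0.818% of the genes it tested were called higher) and 0 at 5 and 2% RPS, and limma-voom called 0 at each level. All 8 log2 fold changes were above 0 at 10% RPS and at 5% RPS, and 6 were above 0 at 2% RPS. Their median was 0.44 at 10%, 0.49 at 5% and 0.11 at 2% RPS, beside -0.015, -0.0080 and -0.00098 over all tested genes. The 9 epithelial genes were likewise all above 0 at 10 and 5% RPS, with medians of 0.11 and 0.18, and 4 of the 9 were at 2% RPS. The share of all tested genes above 0 was not counted. Several markers varied together from mouse to mouse, as given below, so the 8 directions are not 8 separate results.

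Over the 4 diets together, 2 of the 8 markers rose with RPS in a linear trend (Krt20 and Ceacam20, edgeR adjusted p), where 1.15% of all tested genes rose. In DESeq2 the trend passed for 3 markers, these and Clca4a, where 3.22% of the genes it tested rose. The count of edgeR trends changed with the mice and labels used. Without mouse RS10_784 it was 0 of 8, where 0.122% of all tested genes rose. It was 1 without mouse RS10_708 (0.417% of all genes rose), RS10_725 (0.713%) or RS10_729 (0.431%), and 4 without mouse RS10_727 (3.46%), Clca4a and Gucy2c being added. It was 0 with the treatment label (0% of all genes rose) and without the 3 mice whose labels disagree (0.262%). It was also 0 without mice RS10_721 and RS10_784 (0.238%), and with the mean log2 CPM of the epithelial genes (0.0279%) or of the clock output genes (0.743%) as a covariate. The share of rising trends over all genes thus moved in the same direction as the marker count in each of these fits. A test of any difference among the 4 diets found 0 markers with edgeR, where 0.0727% of all genes passed, and 3 at an unadjusted p under 0.05, as for 10.6% of all genes. It found 0 with limma-voom (0.0447% of all genes) and 2, Krt20 and Ceacam20, with DESeq2 (2.01% of the genes it tested).

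**Figure D1:**
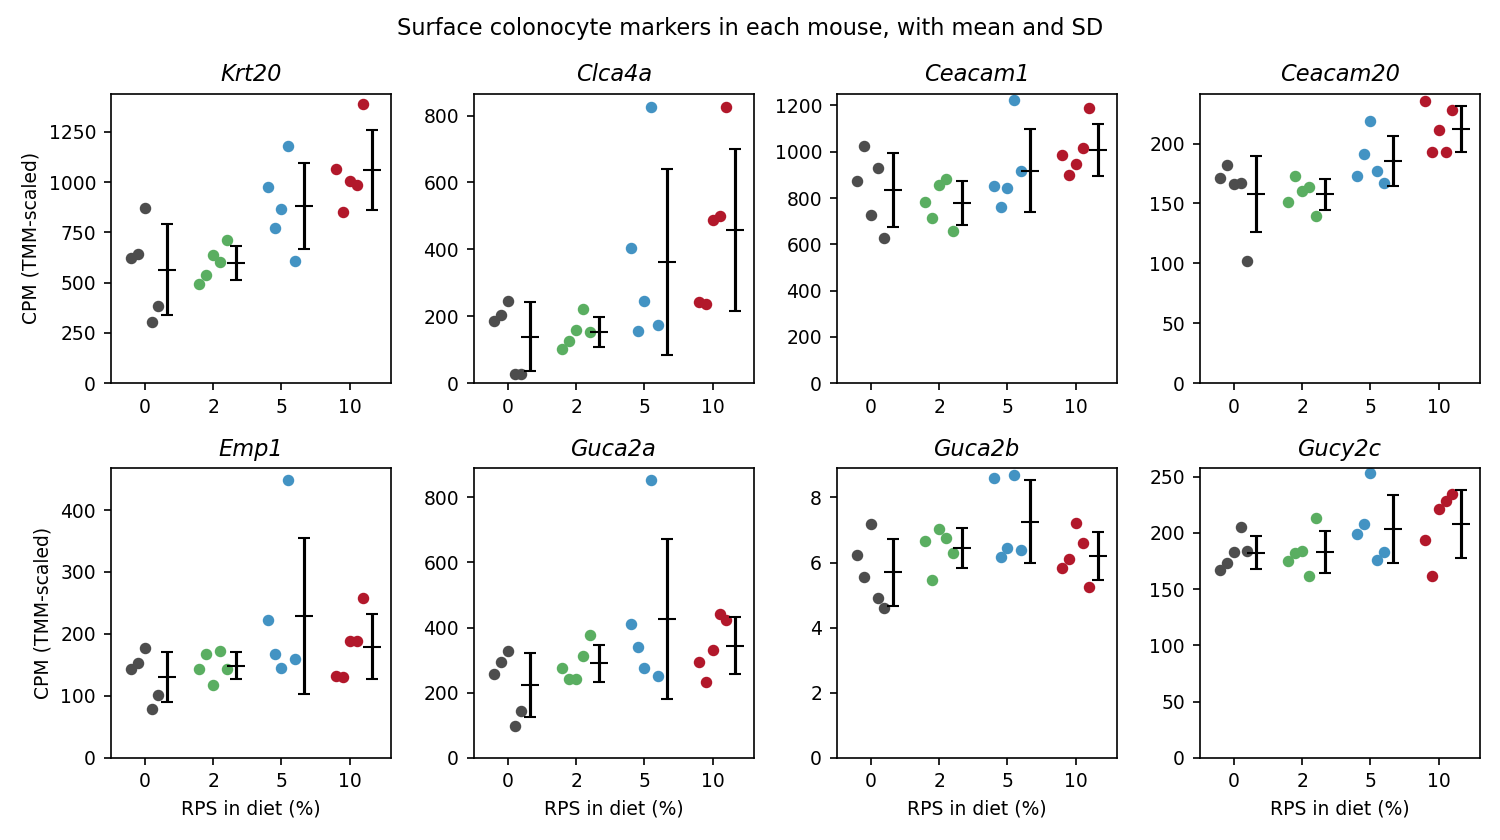
Level of the 8 markers in CPM (vertical axes, starting at 0) against RPS in the diet (%), with 1 point per mouse and the mean and SD of 5 mice beside each group. The 5 mice at 10% RPS lie above all 0% RPS mice for Ceacam20 (192.9 to 235.1 against at most 182.1 CPM), as for 1.13% of all tested genes. For Clca4a, 2 of the 0% RPS mice lie far below the other 3.

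Krt20, the keratin of differentiated colonocytes, had its highest means at 5 and 10% RPS and rose over the diets in the trend test. At 0% RPS the mice had 622.0, 642.7, 873.1, 303.9 and 386.0 CPM (mice RS10_701, RS10_703, RS10_704, RS10_707 and RS10_708). At 2% RPS they had 492.9, 538.6, 639.4, 604.3 and 713.6 CPM, and at 5% RPS 977.2, 773.6, 864.8, 1180 and 607.9 CPM. At 10% RPS they had 1068, 849.9, 1006, 987.6 and 1387 CPM. All 5 mice at 10% RPS exceeded the control median, and 4 exceeded the highest control, mouse RS10_704. The means were 566 ± 226, 598 ± 86.2, 881 ± 215 and 1060 ± 199 CPM (SD, n = 5) at 0, 2, 5 and 10% RPS. Relative to 0% RPS, the log2 fold change (± SE) was 0.91 ± 0.23 at 10% RPS (1.87-fold, edgeR adjusted p = 0.092), 0.64 ± 0.23 at 5% (0.40) and 0.08 ± 0.23 at 2% RPS. The trend was 0.097 ± 0.021 log2 units per 1% RPS (adjusted p = 0.025). In DESeq2 the 10% RPS change was 0.92 ± 0.22 with an adjusted p of 0.0057. Without control mouse RS10_704 edgeR also called Krt20 at 10% RPS (adjusted p = 0.038, 0.328% of all genes called), as it did without mouse RS10_727 (0.046, 1.04% of all genes called). Over all alternatives that adjusted p ran from 0.0057 to 0.38.

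The rise of Krt20 was compared with Krt8, a keratin of all simple epithelial cells, within each library. Krt8 was at 5283 ± 898 CPM with 0% RPS and 6047 ± 671 CPM with 10% RPS (log2 0.19 ± 0.11, edgeR adjusted p = 0.42). The ratio of Krt20 to Krt8 per kb was 0.106 ± 0.031 at 0% RPS, 0.110 ± 0.012 at 2%, 0.143 ± 0.027 at 5% and 0.176 ± 0.018 at 10% RPS. Its range at 10% RPS, 0.159 to 0.199, did not overlap that at 0% RPS, 0.0733 to 0.138. The ratio was chosen after its values were seen, from a marker that itself rose. No share over all genes was counted for ratios. Of single genes, 1.13% of those tested had all 10% RPS mice above the controls. The exact two-sided permutation p of the log2 ratio was 0.0079, the smallest that 5 against 5 mice can give, and 0.060 after adjustment over the 15 comparisons of 5 such ratios. The other keratins of the lists, Krt7, Krt18 and Krt19, did not pass any test, with log2 fold changes of 0.09 ± 0.16, 0.26 ± 0.16 and 0.08 ± 0.13 at 10% RPS.

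Ceacam20 was the 1 marker whose mice at 10% RPS all lay above the controls, which 1.13% of all tested genes also did. At 0% RPS the mice had 171.2, 182.1, 166.1, 166.9 and 102.2 CPM (mice RS10_701, RS10_703, RS10_704, RS10_707 and RS10_708). At 10% RPS they had 235.1, 193.0, 211.7, 192.9 and 228.3 CPM. Mouse RS10_708 was well below the other controls, which were within 166.1 to 182.1 CPM. At 2% RPS the values ran from 139.3 to 172.6 CPM and at 5% RPS from 167.2 to 219.0 CPM, both overlapping the controls. The means were 158 ± 31.7, 158 ± 12.7, 186 ± 20.8 and 212 ± 19.5 CPM (SD, n = 5) in order of RPS. At 10% RPS the log2 fold change was 0.43 ± 0.12 (1.35-fold, edgeR adjusted p = 0.10), under the 1.5-fold limit, and the trend was 0.046 ± 0.010 log2 units per 1% RPS (adjusted p = 0.026). DESeq2 gave the 10% RPS change an adjusted p of 0.028, and over all alternatives it ran from 0.028 to 0.46. With the epithelial covariate the fold change was 0.47 ± 0.13.

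No marker had all its mice above the controls at 5% or 2% RPS, where 0.464% and 0.112% of all genes did.

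Ceacam1, the broadly expressed adhesion molecule of the same family, differed less. Its mice had 874.3, 1027, 725.3, 928.2 and 625.6 CPM at 0% RPS and 988.0, 900.2, 945.2, 1016 and 1191 CPM at 10% RPS. The groups overlapped, with 1 of 5 mice at 10% RPS above the highest control. The log2 fold change was 0.27 ± 0.13 at 10% RPS (edgeR adjusted p = 0.34), 0.14 ± 0.13 at 5% and -0.10 ± 0.13 at 2% RPS. An approximate 95% interval for the 10% RPS change, taken from the SE alone, was 0.011 to 0.53. Its lower end was positive, but the edgeR F-test of this change gave an unadjusted p of 0.054. The change thus did not pass even before adjustment. Of the family, Ceacam2 rose with RPS, from 0.996 ± 0.388 CPM at 0% to 2.76 ± 0.803 CPM at 10% RPS (log2 1.47 ± 0.32, trend adjusted p = 0.011). Its lowest mouse at 10% (1.69 CPM) was above its highest control (1.52 CPM), as for 1.13% of all tested genes. Ceacam10 had a log2 fold change of 0.57 ± 0.22 (adjusted p = 0.23) and Ceacam18 one of -0.46 ± 0.17 (0.20), whose fall in the trend passed in DESeq2 (adjusted p = 0.048) but not in edgeR (0.091). Of the 50-base windows in Ceacam1 transcripts, 24.1% also occur in Ceacam2 transcripts, so that reads of Ceacam2 and of the far more abundant Ceacam1 may not be separable in those windows. The Ceacam1 to Ceacam2 ratio per kb was 887 ± 244 at 0% RPS and 373 ± 85.8 at 10% RPS (exact two-sided permutation p = 0.0079, adjusted p = 0.060 over the 15 ratio comparisons). That unadjusted p is the smallest that 5 against 5 mice can give. This ratio was also chosen after its values were seen. It restates the rise of Ceacam2, a gene of few CPM, and is not a separate result.

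Clca4a had the largest fold change of the 8 markers and the widest spread between mice. At 0% RPS the mice had 186.6, 204.3, 247.1, 28.4 and 28.9 CPM (mice RS10_701, RS10_703, RS10_704, RS10_707 and RS10_708). The last 2 were several times below the other 3. At 2% RPS the values were 103.6, 127.3, 159.6, 222.1 and 152.2 CPM, and at 5% RPS they were 405.3, 157.0, 246.6, 825.5 and 173.0 CPM. At 10% RPS they were 243.0, 235.8, 487.4, 498.8 and 826.1 CPM. The 2 highest values came from mice RS10_784 and RS10_721, the libraries with pancreatic transcripts, and 3 of 5 mice at 10% RPS exceeded the highest control. For Clca4a the log2 fold change was 1.72 ± 0.62 at 10% RPS (3.30-fold, edgeR adjusted p = 0.21), 1.38 ± 0.62 at 5% (0.52) and 0.14 ± 0.61 at 2% RPS, with a trend of 0.188 ± 0.058 per 1% RPS (0.087). At 10% RPS it was 1.40 ± 0.58 without mice RS10_721 and RS10_784, and 0.82 ± 0.50 with the epithelial covariate. At 5% RPS it was 0.82 without mouse RS10_721 and 0.36 with the epithelial covariate.

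Clca4a reads could be confused with those of other genes, since 41% of its 50-base transcript windows occur elsewhere. The largest share, 23.6%, is in a transcribed pseudogene (ENSMUSG00000074196) that is absent from the count table. The neighbouring gene Clca4b holds 20.9%, and the lncRNA Gm16233, on the other strand, holds 8.19%. Clca4b had 2.87 ± 3.44 CPM at 0% RPS and 15.7 ± 15.6 CPM at 10% RPS (log2 2.45 ± 1.01, edgeR adjusted p = 0.26). The mice highest for Clca4b, RS10_719 with 60.6 CPM and RS10_784 with 42.8 CPM, were not those highest for Clca4a throughout, since mouse RS10_721 had 2.44 CPM of Clca4b. The other relatives were Clca1, the goblet cell mucus protein, with a log2 fold change of 0.75 ± 0.25 at 10% RPS (adjusted p = 0.16), Clca3b with 0.52 ± 0.25 (0.33), Clca3a1 with 0.15 ± 0.19 and Clca3a2 with 0.21 ± 0.32.

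Emp1 was highest by its mean at 5% RPS, where 1 mouse stood apart. At 0% RPS the mice had 143.6, 153.5, 177.9, 78.8 and 101.3 CPM, and at 5% RPS 221.8, 168.2, 145.8, 449.2 and 159.5 CPM, the 449.2 being mouse RS10_721. At 2% RPS they had 142.9, 167.0, 117.9, 171.7 and 143.5 CPM and at 10% RPS 131.7, 129.8, 188.9, 188.6 and 258.3 CPM. All groups overlapped. In edgeR the log2 fold change was 0.80 ± 0.30 at 5% RPS (edgeR adjusted p = 0.43) and 0.45 ± 0.30 at 10% RPS (0.50). Without mouse RS10_721 the 5% change was 0.41, the lowest of the 20 fits that left out a mouse. With the epithelial covariate the 10% change turned to -0.08 ± 0.17. The relatives Emp2, Emp3 and Pmp22 had log2 fold changes of -0.13 ± 0.08, -0.19 ± 0.13 and 0.15 ± 0.25 at 10% RPS, and none passed a test.

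**Figure D2:**
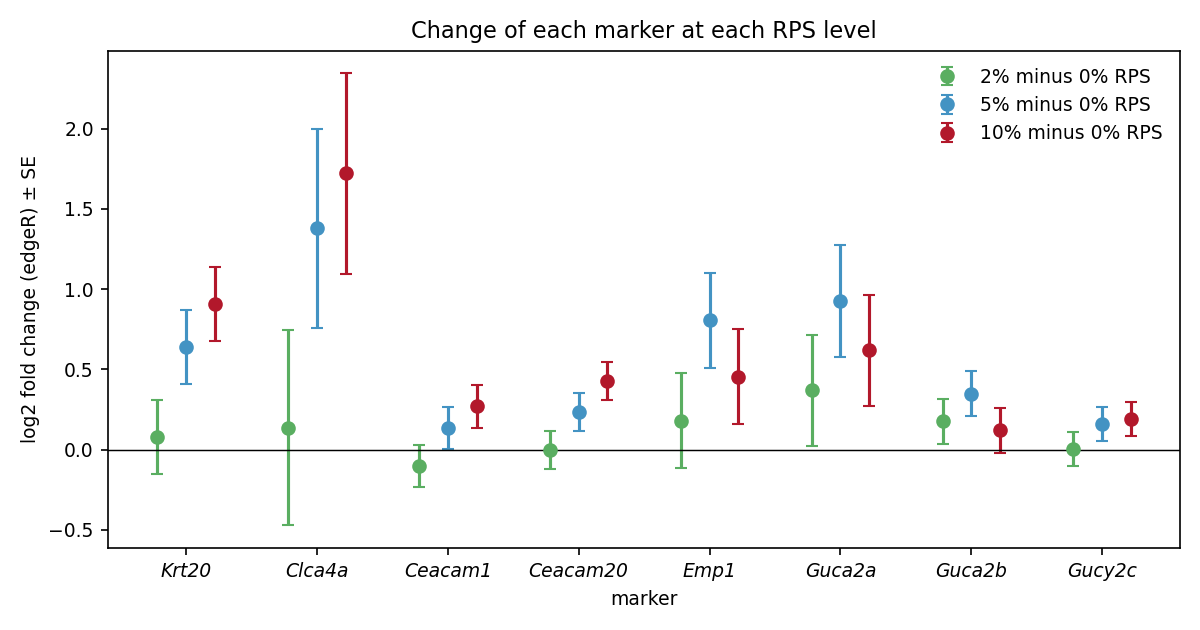
Log2 fold change of each marker (vertical axis, edgeR, with SE) at 2, 5 and 10% RPS relative to 0% RPS (n = 5 mice per diet). The 10% RPS value exceeds that at 5% for Krt20, Clca4a, Ceacam1, Ceacam20 and Gucy2c, while Emp1, Guca2a and Guca2b have their highest value at 5% RPS; none of the level comparisons passed the adjusted threshold.

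The guanylin gene Guca2a had its highest mean at 5% RPS, again through mouse RS10_721. At 0% RPS the mice had 257.1, 292.6, 326.4, 99.1 and 144.8 CPM, mice RS10_707 and RS10_708 being lowest. At 2% RPS they had 276.8, 242.5, 240.6, 311.4 and 377.3 CPM, at 5% RPS 411.4, 339.5, 275.6, 851.7 and 250.6 CPM, and at 10% RPS 294.3, 231.4, 330.4, 440.1 and 423.6 CPM. All groups overlapped, and 3 of 5 mice at both 5% and 10% RPS exceeded the highest control. The log2 fold change was 0.37 ± 0.35 at 2%, 0.93 ± 0.35 at 5% and 0.62 ± 0.35 at 10% RPS (edgeR adjusted p = 0.9997, 0.43 and 0.41). Without mouse RS10_721 the 5% change was 0.51. With the epithelial covariate the 10% change was 0.08 ± 0.24.

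The uroguanylin gene Guca2b was low in every mouse, with 112 to 260 counts. Its CPM was 6.24, 5.57, 7.18, 4.91 and 4.61 at 0% RPS, 6.68, 5.47, 7.04, 6.76 and 6.29 at 2%, 8.59, 6.16, 6.46, 8.70 and 6.38 at 5%, and 5.82, 6.09, 7.21, 6.6 and 5.26 at 10% RPS. The groups overlapped throughout, and mice RS10_717 and RS10_721 were highest. The log2 fold change was 0.35 ± 0.14 at 5% RPS (edgeR adjusted p = 0.46) and 0.12 ± 0.14 at 10% RPS (0.74), with a 95% interval of -0.16 to 0.40 for the latter. Of its 50-base windows, 41.6% are also in transcripts of Gm35761, which lies on the other strand. The libraries kept strand, but whether the counting used it was not given in the sources used here. Per kb, Guca2a exceeded Guca2b by a median of 41.4-fold at 0%, 44.5-fold at 2%, 48.0-fold at 5% and 50.8-fold at 10% RPS, with exact permutation p-values of at least 0.10 against 0% RPS.

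Gucy2c, the receptor of both peptides, had the smallest spread of the 8 markers over all 20 mice, though within 2, 5 and 10% RPS the SD as a share of the mean was smaller for Ceacam20 (8.07, 11.2 and 9.20%) than for Gucy2c (10.3, 14.9 and 14.54%). At 0% RPS the mice had 166.8, 172.9, 183.0, 205.0 and 184.2 CPM, and at 10% RPS 193.9, 161.7, 220.9, 228.7 and 234.9 CPM. At 2% RPS the range was 161.6 to 212.9 CPM and at 5% RPS 175.7 to 253.1 CPM. All groups overlapped. Mice RS10_707 and RS10_708, low for Guca2a, had the 2 highest Gucy2c values of the controls, and mouse RS10_721, highest for Guca2a, had the lowest of the 5% RPS mice. The log2 fold change was 0.19 ± 0.11 at 10% RPS (edgeR adjusted p = 0.40), with a 95% interval of -0.016 to 0.40, and 0.16 ± 0.11 at 5% RPS. The ratio of Guca2a to Gucy2c per kb ran from 3.22 to 11.9 at 0% RPS, from 7.24 to 32.2 at 5% RPS and from 9.51 to 12.8 at 10% RPS, with an exact permutation p of 0.29 for 10% against 0% RPS. The natriuretic peptide receptors Npr1 and Npr2, relatives of Gucy2c in the same enzyme family, had log2 fold changes of -0.08 ± 0.15 and -0.18 ± 0.10 at 10% RPS.

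**Figure D3:**
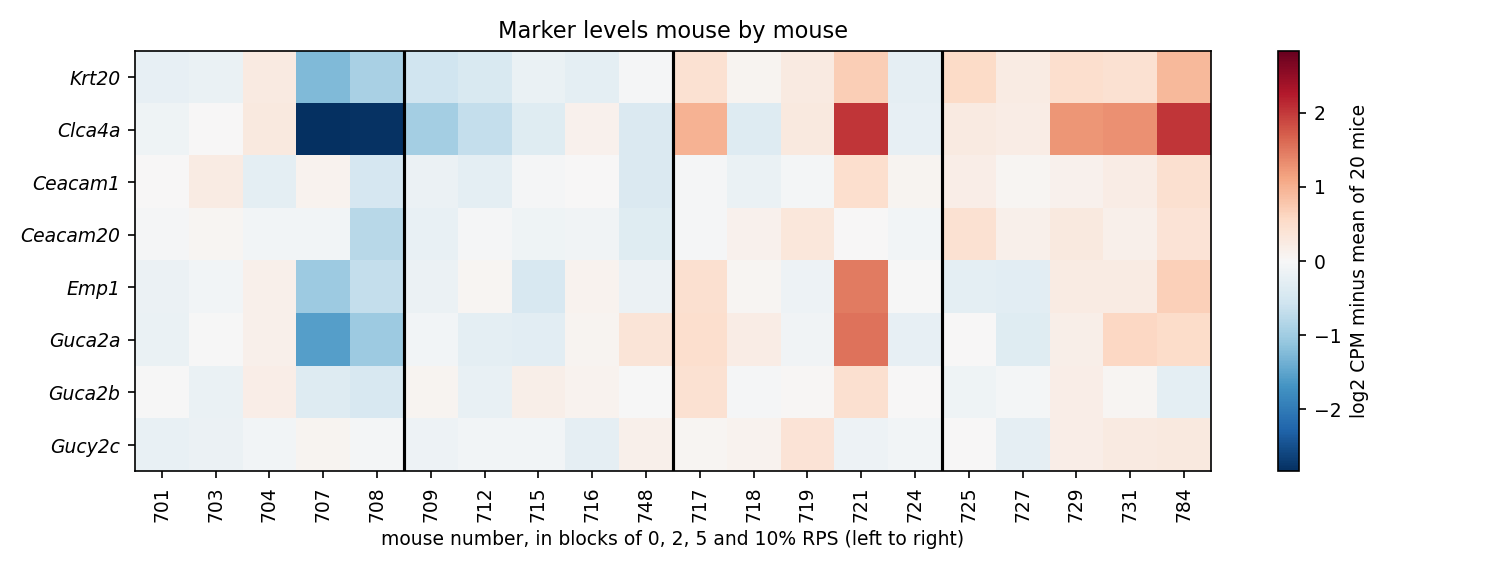
Log2 CPM of each marker (rows) in each of the 20 mice (columns, in blocks of 0, 2, 5 and 10% RPS), shown as the difference from that marker's mean over all mice. Mice RS10_707 and RS10_708 (0% RPS) are low and mice RS10_721 (5%) and RS10_784 (10%) high for Krt20, Clca4a, Emp1 and Guca2a, while the Gucy2c row stays near 0.

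A few mice set the extremes of several markers at once. Mouse RS10_707 was the lowest of all 20 mice for 4 of the 8 markers (Krt20, Clca4a, Emp1 and Guca2a) and mouse RS10_708 for 3 (Ceacam1, Ceacam20 and Guca2b), and mouse RS10_708 was among the 2 lowest for 7. Mouse RS10_721 was the highest for 4 markers (Ceacam1, Emp1, Guca2a and Guca2b) and mouse RS10_784 for 2 (Krt20 and Clca4a), and each was among the 2 highest for 6. The same mice differed in epithelial transcripts: mouse RS10_721 had the highest sum (18541 CPM), mouse RS10_784 the next (17546 CPM) and mouse RS10_707 the lowest (11818 CPM), while mouse RS10_708 (13669 CPM) lay within the range of the others. Mouse RS10_721 also had the lowest sum of 8 smooth muscle genes, 6160 CPM, where the other mice had 7557 to 13658 CPM. The next lowest, 7557 CPM, was mouse RS10_707, lowest in epithelial transcripts, and mouse RS10_784 had 9235 CPM. By diet, the epithelial sum was 11818 to 15871 CPM in the controls, while mice with 10% RPS had 13755 to 17546 CPM. In the fit with the epithelial covariate the 10% RPS changes fell to 0.62 ± 0.20 for Krt20, 0.16 ± 0.15 for Ceacam1 and 0.0017 ± 0.15 for Guca2b. Falls of Clca4a, Emp1 and Guca2a are given above. Gucy2c had 0.18 ± 0.12, close to its 0.19 ± 0.11 without the covariate. Ceacam20 did not fall, with 0.47 ± 0.13 against 0.43 ± 0.12 without it. The epithelial genes include Cdh17, which itself rose with RPS in the trend test, and the cause of these changes was not tested.

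Whether the markers varied together from mouse to mouse was examined by correlation of log2 CPM over the 20 mice, for the 28 pairs. Pearson's r passed an adjusted permutation p of 0.05 for 16 pairs, and both r and Spearman's rho did for 10. The share of passing pairs among other genes was not counted. These counts therefore cannot show whether the markers varied together more than other genes do. After subtraction of each diet's mean, with permutation within diets, both measures passed for 7 pairs: the 6 pairs among Krt20, Clca4a, Emp1 and Guca2a, and Clca4a with Guca2b. Within this group of 4 markers r over all mice ran from 0.74 (Krt20 and Emp1) to 0.94 (Krt20 and Clca4a). For Krt20 and Clca4a r was 0.94 and rho 0.90 (permutation p = 1e-05 for both, the smallest that 100000 resamples can give; adjusted p = 7e-05 and 0.00028), 0.90 and 0.88 with diet means subtracted, and r was 0.89 without mice RS10_707 and RS10_708. For Emp1 and Guca2a r was 0.92 and rho 0.82 (permutation p = 1e-05 and 2e-05; adjusted p = 7e-05 and 0.00028), 0.90 and 0.86 within diets, and r was 0.81 without mice RS10_721 and RS10_707. The other pairs of the group also fell when 2 mice were left out, Krt20 and Emp1 from 0.74 to 0.59, Krt20 and Guca2a from 0.82 to 0.64, Clca4a and Emp1 from 0.84 to 0.78, and Clca4a and Guca2a from 0.88 to 0.75. Without mice RS10_721 and RS10_784 the rho of Krt20 and Emp1 was 0.51 (permutation adjusted p = 0.079) and no longer passed. In each case the mice left out for r were the 2 farthest from the median of the first gene.

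The ligand genes Guca2a and Guca2b had an r of 0.70 (permutation p = 0.00067, adjusted p = 0.0027) and a rho of 0.49 (permutation p = 0.029, adjusted p = 0.061), and r fell to 0.50 without mice RS10_707 and RS10_721. Krt20 and Ceacam20, the 2 markers that rose with RPS, had an r of 0.68 and a rho of 0.71 over all mice (permutation p = 0.0012 and 0.00065, adjusted p = 0.0042 and 0.0035), but within diets r was 0.34 and rho 0.31 (permutation adjusted p = 0.60 and 0.45). Gucy2c passed with none of the other 7 markers: its r with Guca2a was 0.13 and its rho 0.35 (permutation p = 0.59 and 0.13, adjusted p = 0.66 and 0.19), and with Guca2b they were -0.07 and -0.05 (permutation p = 0.76 and 0.83, adjusted p = 0.76 and 0.86). Within diets the r values were -0.11 and -0.27. Without mice RS10_707 and RS10_721 the r of Gucy2c with Guca2a was 0.50.

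**Figure D4:**
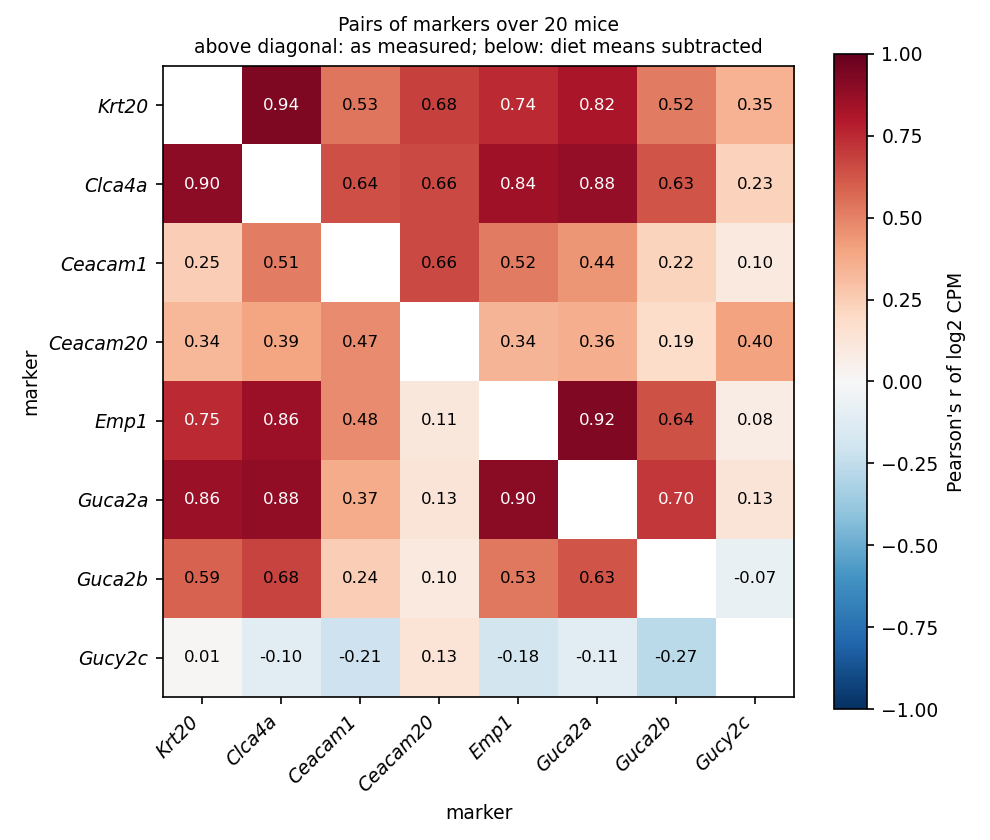
Pearson's r of log2 CPM for each pair of markers over 20 mice, as measured (above the diagonal) and after subtraction of diet means (below it), on a scale from -1 to 1. Krt20, Clca4a, Emp1 and Guca2a have r of at least 0.74 with each other above and below the diagonal, and Gucy2c has r of at most 0.40 with every other marker.

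The genes most like each marker were ranked among 15231 tested genes whose mean reached 1 CPM, by Pearson's r with diet means subtracted, as a description over 20 mice of shared libraries. Krt20 was most like Clca4a (0.90), S100a14 (0.89) and Agpat4 (0.88). Clca4a was most like S100a10 (0.91), Tagln2 (0.90) and the membrane mucin gene Muc17 (0.90). Emp1 was most like Pgap1 (0.91), Guca2a (0.90) and Ddah1 (0.89), and Guca2a was most like Emp1 (0.90), Cab39 (0.90) and the membrane mucin gene Muc3a (0.89). The other 4 markers had no member of the set among their 3 nearest genes. These were Sema4d (0.89), Fgd3 (0.84) and Nktr (0.83) for Ceacam1, and Kdm2a (0.86), Heatr6 (0.85) and Cr2 (0.85) for Ceacam20. For Guca2b they were Slc4a11 (0.84), Letm1 (0.79) and Shf (0.78), and for Gucy2c Ifih1 (0.94), the cytosolic RNA sensor, Slc35b3 (0.91) and Tax1bp1 (0.87).

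Genes that act with guanylate cyclase C were read from a list of 13, with cyclic GMP-dependent kinases, phosphodiesterases, channels, exchangers and scaffolds, all tested. In edgeR, 2 of these rose in the trend over RPS, where 1.15% of all tested genes rose, 1 fell, where 0.95% fell, and 10 did not pass. EdgeR called 0 at a single level. DESeq2 gave the same numbers in the trend (3.22% of the genes it tested rose and 2.38% fell). It called 1, Slc9a3, higher at 10% RPS (adjusted p = 0.00089), where 0.818% of its genes were called higher. Their median log2 fold change at 10% RPS was 0.09, where that of all genes was -0.015. Slc9a3, the sodium-hydrogen exchanger of the brush border that cyclic GMP inhibits, had 5.44, 14.8, 17.8, 1.49 and 1.63 CPM at 0% RPS and 79.8, 23.0, 133, 71.0 and 148 CPM at 10% RPS. The 10% RPS mice lay above all controls, as for 1.13% of all tested genes, and mice RS10_707 and RS10_708 were again the lowest. Its log2 fold change was 3.47 ± 0.79 at 10% RPS (edgeR adjusted p = 0.082; trend adjusted p = 0.037). Nherf1, a scaffold that binds this exchanger, rose from 189 ± 15.0 to 267 ± 58.7 CPM (log2 0.50 ± 0.12, trend adjusted p = 0.024). Nherf2, another scaffold of the family, fell from 37.8 ± 5.33 to 27.4 ± 4.5 CPM (log2 -0.47 ± 0.13, trend adjusted p = 0.031). The chloride channel gene Cftr had a log2 fold change of 0.10 ± 0.17 and the kinase gene Prkg2 one of -0.04 ± 0.25, both without passing a test.

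Other genes of surface colonocytes were read from a list of 25, of which 24 were tested. In the edgeR trend 7 rose, 0 fell and 17 did not pass, beside 1.15% and 0.95% of all genes, and 1, Car4, was called at 10% RPS, beside 0.0391% of all genes. In DESeq2 12 rose and 0 fell, beside 3.22% and 2.38% of the genes it tested. It called 5 higher at 10% RPS, beside 0.818% of its genes: Car4, Aqp8 (adjusted p = 0.0087), Tmigd1 (0.015), Muc3a (0.018) and the water channel Aqp4 (0.027). The trends that passed in DESeq2 and not in edgeR were those of Aqp4, Klf4, Mxd1, Lypd8 and Sdcbp2. The median log2 fold change of the list at 10% RPS was 0.25, beside -0.015 over all genes, and 18 of 24 were above 0. Car4, a membrane carbonic anhydrase, had 1116 ± 169 CPM at 0% RPS and 1825 ± 131 CPM at 10% RPS (log2 0.71 ± 0.11, edgeR adjusted p = 0.010). Slc26a3, the chloride-bicarbonate exchanger of the colon, had 1102 ± 157 and 1633 ± 119 CPM (log2 0.57 ± 0.10, adjusted p = 0.016, just under the 1.5-fold limit). The other 5 with a trend had these log2 fold changes at 10% RPS: the water channel Aqp8 0.68 ± 0.17, Muc3a 0.73 ± 0.21, Plac8 0.53 ± 0.14, the brush border cadherin Cdhr2 0.35 ± 0.08 and Tmigd1 1.74 ± 0.50, the last from 1.06 CPM at 0% RPS. Others had values below 0, such as Hsd11b2 with -0.32 ± 0.11 and Cyp2c55 with -0.46 ± 0.28.

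**Figure D5:**
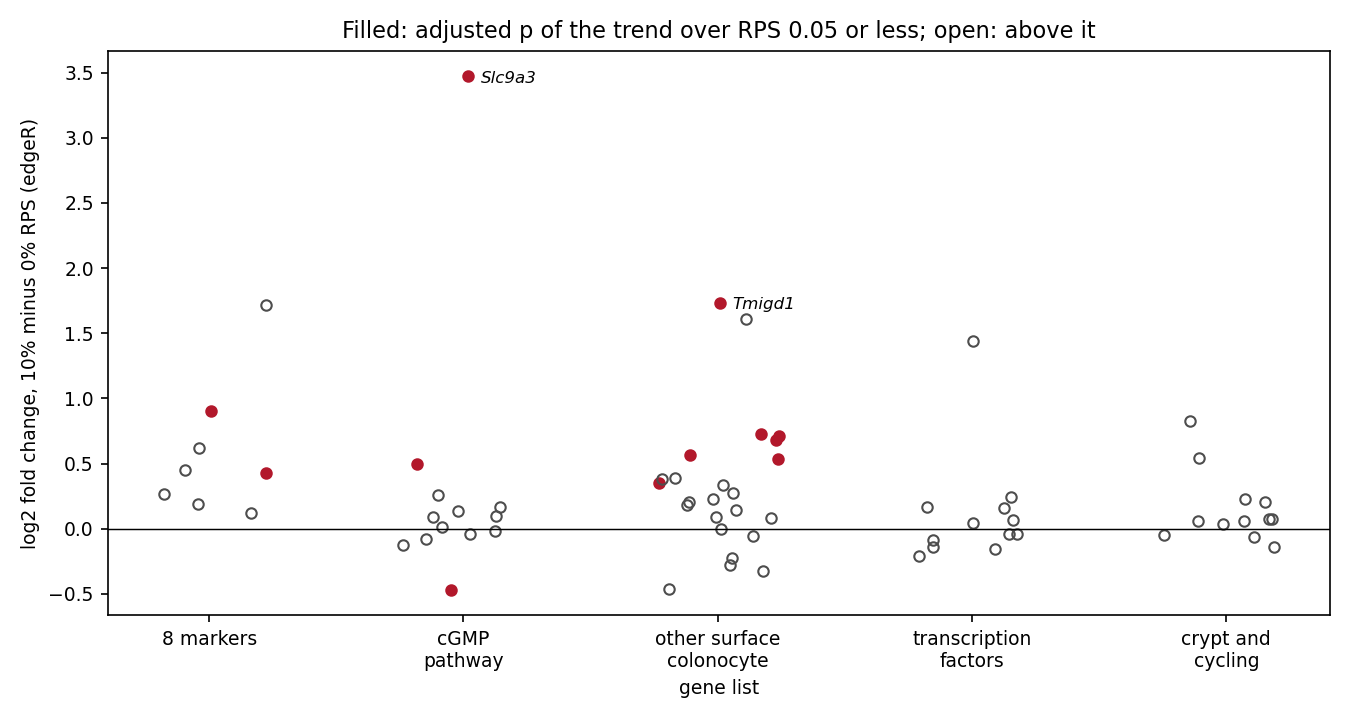
Log2 fold change at 10% relative to 0% RPS (vertical axis, edgeR) of the tested genes of 5 lists, 1 point per gene, filled where the edgeR trend over RPS passed. Filled points number 2 of 8 among the markers, 3 of 13 in the cyclic GMP pathway (Slc9a3 at 3.47) and 7 of 24 among other surface colonocyte genes, and 0 among the 12 transcription factors and the 12 crypt and cycling genes.

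Of 12 transcription factors of the colonic epithelium, 0 passed a test in edgeR. At 10% RPS 6 of the 12 had a log2 fold change above 0, with a median of 0.0038. At 5% RPS 5 of the 12 did, with a median of -0.098, and at 2% RPS 2 of the 12 did. DESeq2 passed 2 in the trend, both rising, and called 1, Cdx2, higher at 10% RPS (adjusted p = 0.038). Of the genes it tested, 3.22% rose in the trend and 0.818% were called higher. In the edgeR trend test Cdx2 had an adjusted p of 0.12 (log2 1.44 ± 0.44 at 10% RPS) and Hnf4a one of 0.27 (0.16 ± 0.11). Cdx2, a homeobox factor of intestinal identity, was lowest in the same control mice as Clca4a, RS10_707 (5.77 CPM) and RS10_708 (6.06 CPM), and highest in mouse RS10_721 (84.6 CPM). Of 12 genes of stem and cycling crypt cells, 0 passed in edgeR, and the smallest trend p-values were those of the replication genes Pcna (0.55 ± 0.16, 0.071) and Mcm6 (0.83 ± 0.26, 0.11) and of Cdca7 (0.22 ± 0.14, 0.33). In DESeq2 the trends of Pcna (adjusted p = 0.020) and Mcm6 (0.024) passed, both rising, beside 3.22% of its genes. Mcm6 was called higher at 10% RPS (DESeq2 adjusted p = 0.028), beside 0.818% of its genes. Lgr5, the stem cell receptor, had a log2 fold change of 0.08 ± 0.18 and Mki67 one of -0.06 ± 0.32 at 10% RPS.

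Among lists of other cell types, the edgeR trend passed for Cdh17 of 9 epithelial genes (trend adjusted p = 0.028) and Pyy of 6 enteroendocrine genes (trend adjusted p = 0.015), both rising. Their log2 fold changes at 10% RPS were 0.36 ± 0.10 and 0.60 ± 0.12, and edgeR called neither at that level. In edgeR no tested gene passed among those of goblet cells (7), tuft cells (3), squamous epithelium (6), smooth muscle (8), fibroblasts (6), endothelium (5), leukocytes (6), pancreas (5) or the circadian clock output (8). In DESeq2 the trend also passed for Clca1 of the goblet list (adjusted p = 0.0068) and Dsg3 of the squamous list (0.013), both rising, and for Emcn (endothelium, 0.015), Cd68 (leukocytes, 0.040) and Per1 (clock output, 0.047), all falling. Of the genes DESeq2 tested, 3.22% rose and 2.38% fell in the trend. At 10% RPS it called Clca1 (adjusted p = 0.041) and Pyy (0.0014) higher, beside 0.818% of its genes. Cd68 was called lower (DESeq2 adjusted p = 0.032), beside 0.427% of its genes. Of the 6 leukocyte genes, however, 4 had an edgeR log2 fold change above 0 at 10% RPS, with a median of 0.21. The summed leukocyte level was 106.8 to 706.7 CPM in the controls (mean 268.0 CPM) and 364.7 to 787.6 CPM with 10% RPS (mean 513.5 CPM). The clock output genes summed to 478.9 to 996.2 CPM in the controls, against 355.5 to 754.2 CPM with 10% RPS. The part of these levels in the marker values was not tested beyond the covariate fits given above.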

How the data were processed

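Polyadenylated RNA was sequenced in short single-end reads from stranded libraries. The authors trimmed low-quality bases, mapped reads to GRCm39 in CLC Genomics Workbench and deposited raw counts of reads per gene, without normalization or pooling. Annotation release and treatment of multi-mapping reads are not given in the sources used here.

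Members and gene lists were chosen with earlier results of these data known. Counts were filtered (filterByExpr, minimum count 10), scaled by TMM and fitted over the 4 diets with edgeR 4.0.16 in R 4.3.3. A gene was called at a Benjamini-Hochberg adjusted p of at most 0.05 over all 17893 tested genes and a change of 1.5-fold or more in either direction. The trend and any-diet tests had no fold limit. DESeq2 1.42.0 and limma 3.58.1 (voom) were alternatives. CPM are TMM-scaled, and a prior count of 2 was added before taking log2 CPM. Intervals are 1.96 SE. The fit was first tested on simulated counts with known changes. Mice were grouped by the description label. Alternatives were other scaling, filters, tools, the treatment label, thinned counts, left-out mice, and the mean log2 CPM of the epithelial or clock genes as a covariate.

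All 8 members, list genes that passed a test (otherwise the 3 with the smallest trend p), relatives of at least 1 CPM and the 3 genes most like each member were named, except 1 transcription factor that is not reported here. Ratios, and list genes outside this rule, were chosen after their values were seen. Shared sequence was counted in windows of 50 bases on either strand. Pairs of mice within a diet differed well beyond sampling noise, with chi-square per degree of freedom of at least 9.10, so the libraries were not repeats of one another. Each library was counted as a sample of its own. Which mice shared a cage or litter is not given in the sources used here, so their independence was not tested. P-values of the diet tests set differences between diets against the spread between single mice. The depth of at least 18.4 M (18429493) counts per library limits counting error.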

Additional observations from a re-analysis of the deposited data

Results flagged for a closer look

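In 36 checks for a mouse apart from the other 4 of its diet (8 markers and the total count in 4 diets), 4 passed Dixon's 95% critical value of 0.71, where chance gives about 1.8. Mouse RS10_708 had 102.2 CPM of Ceacam20 at 0% RPS, with the next mouse at 166.1 CPM. Mouse RS10_721 had 449.2 CPM of Emp1 and 851.7 CPM of Guca2a at 5% RPS, with the next mouse at 221.8 and 411.4 CPM. Mouse RS10_724 had a total of 22.3 M (1000000) counts at 5% RPS, with the next mouse at 28.7 M. Both Emp1 and Guca2a of mouse RS10_721 came from the library with the most pancreatic and epithelial transcripts, whose part in these values was not tested.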

How the results depend on the processing

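The count of markers called at 10% RPS was 0 with edgeR and 1 with DESeq2, and 0 to 1 when single mice were left out. The count called at 5% and at 2% RPS stayed at 0 in all alternatives tried. The count with a trend was 2, and 0 with the treatment label, without the 3 mice whose labels disagree, with the epithelial or the clock covariate, and without mice RS10_721 and RS10_784, an alternative chosen after seeing the data. It was 0 to 4 when single mice were left out. The count with any diet difference was 0, and 2 with DESeq2. Pairs of markers that passed in Pearson's r numbered 16, and 7 with diet means subtracted. No other alternative changed the counts by over 1.5 times.

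Directions near 0 turned. Ceacam20 at 2% RPS, at -0.0014, was 0.023 in limma-voom, 0.058 with the treatment label, 0.042 without the 3 mice and 0.0036 with the clock covariate, and -0.12 to 0.057 with single mice left out. Gucy2c at 2% RPS was -0.016 with the treatment label, -0.052 without the 3 mice and -0.054 to 0.051 with single mice left out. With single mice left out Clca4a at 2% RPS was -0.12 to 0.45 and Krt20 -0.078 to 0.29. With the epithelial covariate Emp1 was -0.083 at 10% RPS and -0.018 per 1% RPS, and the trends of Guca2a and Guca2b were -0.0068 and -0.0067. The causes of these changes were not tested. No paired analysis was possible because the mouse numbers are unique to each animal.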
